A study of Homo sapiens with 12 samples.

Results

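The genes described here belong to the TRAIL and Fas death receptor pathway and to the inflammatory caspase branch of cell death. They are 9 genes taken by symbol from the 58288 in the expression table: the ligand TNFSF10, the receptors TNFRSF10A, TNFRSF10B and FAS, the interferon-induced gene XAF1, the caspases CASP8, CASP1 and CASP4, and the BCL2 family member BID. All 9 symbols were found once, 8 of the 9 passed the filter on low values (a TPM of at least 1 in at least 3 of the 12 libraries), and TNFRSF10A was listed at 0 in every library. TPM, the share of all transcripts that a gene holds, is a level scaled for the length of the gene and the depth of the library.

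RNA was sequenced from FaDu, an established squamous carcinoma line of the human hypopharynx, to ask how loss of STING shapes gene expression at baseline and after radiation. STING is the adaptor that turns cytosolic DNA sensing into interferon and inflammatory signalling, and its gene is listed as TMEM173. The 12 libraries formed 4 groups of 3: STING WT at 0 Gy, STING KO at 0 Gy, STING WT after radiation (RT) and STING KO after RT, where RT was 4 daily fractions of 2 Gy. Every group carried Cas9 and had been selected with puromycin, the WT cells with non-targeting guide 2 and the KO cells with STING guide 2. One cell line and one guide per genotype were therefore sampled, the time between the last fraction and collection is not stated in the sources used here, and nothing in the labels says that the 3 libraries of a group came from separate cultures, so the p-values measure the spread between these libraries, which may be technical.

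TMEM173 lay between 21.1 and 26.1 TPM in the 6 WT libraries and between 5.18 and 7.41 TPM in the 6 KO libraries, a log2 difference of -1.77 (SE 0.11, adjusted p = 1.16e-05) at 0 Gy and of -1.60 (SE 0.11, adjusted p = 2.00e-05) after RT. An edited gene can still be transcribed, so this level checks the labels and not the loss of the protein. Between 14860 and 15292 genes reached 1 TPM in each library, and Pearson's r of the log2 values within groups ran from 0.983 to 0.987 across genes. The 7 squamous epithelial markers were all expressed, with KRT5 between 1869 and 4839 TPM. Of the 8 markers of other cell types, PTPRC, CD3E, LYZ, COL3A1 and PECAM1 stayed at or below 0.289 TPM, while CD68 (14.7 to 31.1 TPM), COL1A1 (6.34 to 9.23 TPM) and VWF (2.60 to 4.49 TPM) were detected in every library. The files hold TPM without read counts, so the depth behind each value is unknown.

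TRAIL, the product of TNFSF10, binds the death receptors DR4 and DR5, and Fas ligand binds FAS. Ligand-bound receptors recruit the adaptor FADD and caspase-8, which cuts downstream caspases directly and cuts BID into a fragment that opens the mitochondrial route through BAX and BAK. Inhibitor of apoptosis proteins such as XIAP hold caspases in check, and XAF1 is an interferon-induced protein that binds XIAP. CASP1 and CASP4 encode inflammatory caspases that cut gasdermin D or interleukin precursors after inflammasome assembly or intracellular lipopolysaccharide.

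Among these genes XAF1 was the one lower in STING KO cells at baseline, and XAF1 and TNFRSF10B were lower after RT. XAF1 was below 1 TPM in all 6 KO libraries, so it met the filter on low values through its WT libraries alone, and a gene that enters that way had to differ. The counts that follow include it and are given as a description. At 0 Gy, 1 of the 8 tested genes passed the threshold (limma on log2(TPM + 1), Benjamini-Hochberg adjusted p under 0.05), XAF1, and it was lower in KO, against 1.73% of all 15973 genes tested in either direction and 1.26% in the lower direction. After RT, 2 of the 8 were lower in KO, XAF1 and TNFRSF10B, against 3.59% of all genes in either direction and 2.66% in the lower direction. The 3 KO libraries did not overlap the 3 WT libraries for 1 of the 8 genes at 0 Gy (XAF1), where 20.6% of all genes did not overlap, and for 4 of the 8 after RT (XAF1, TNFRSF10B, TNFSF10 and FAS, all lower in KO), where 24.1% of all genes did not overlap. The median log2 difference of the 8 genes was -0.16 at 0 Gy, beside -0.02 over all tested genes, and -0.21 after RT, beside -0.02.

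With radiation TNFSF10 was called lower in both genotypes and TNFRSF10B higher in WT cells, calls that depended on single libraries. For TNFRSF10B the radiation effects of the 2 genotypes did not differ past the threshold (limma adjusted p = 0.752). In WT cells 2 of the 8 genes passed the threshold, against 3.74% of all genes, TNFSF10 falling and TNFRSF10B rising. In KO cells 1 of the 8 passed, TNFSF10 again lower, against 3.69% of all genes in either direction and 1.7% in the lower direction. The irradiated and unirradiated libraries did not overlap for 3 of the 8 genes in WT cells (TNFSF10, CASP4 and TNFRSF10B), beside 24.8% of all genes, and for 2 of the 8 in KO cells (TNFSF10 and CASP1), beside 24.3%. The median log2 difference of the 8 was 0.01 in WT cells and -0.03 in KO cells, where the medians over all tested genes were 0.02 and 0.02. In these bulk samples fewer cells expressing a gene and less of its RNA per cell cannot be told apart.

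**Figure D1:**
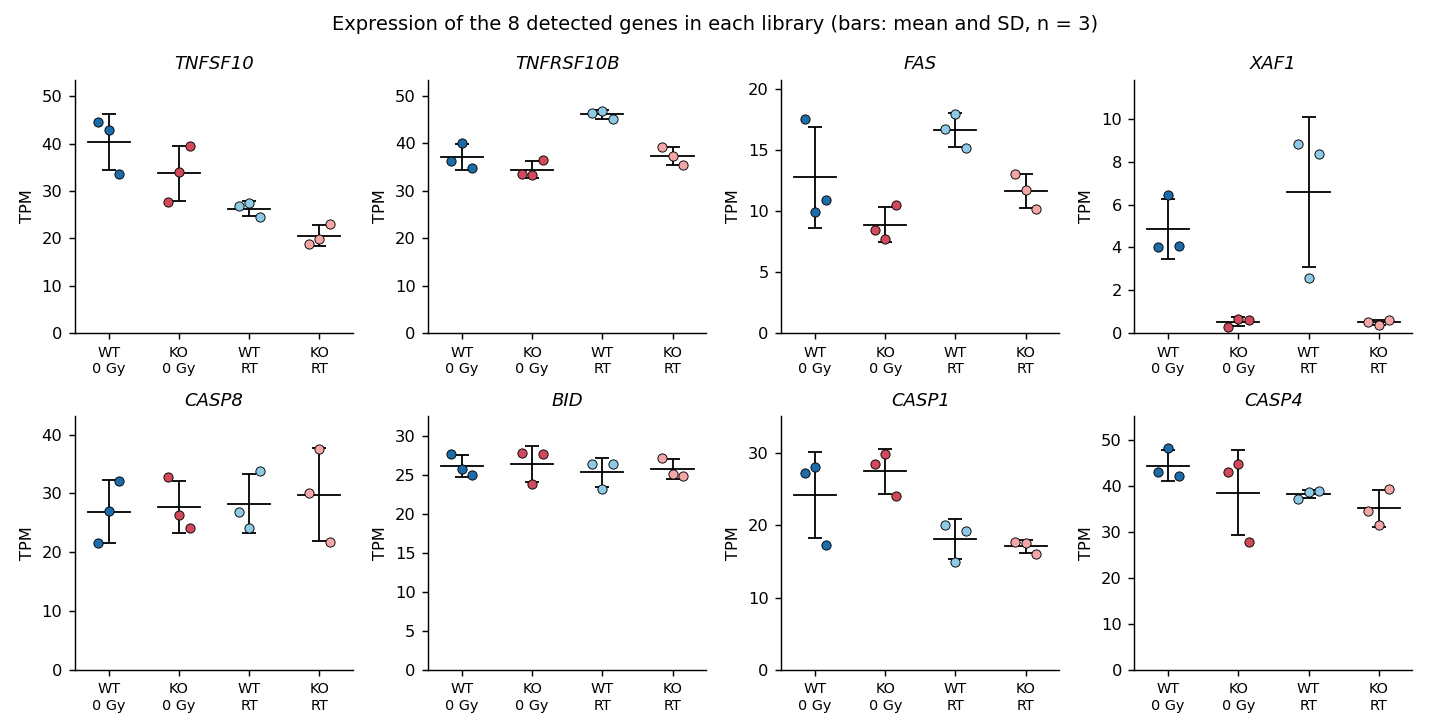
TPM (y axis, linear, from 0, on a scale of its own for each gene) of the 8 detected genes in the 4 groups (x axis). Points are single libraries, horizontal bars the mean and error bars the SD of 3 libraries. XAF1 lies at or below 0.665 TPM in all 6 KO libraries, and TNFSF10 is lower in each of the 6 irradiated libraries than in any of the 6 unirradiated ones.

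When unirradiated WT cells were ranked by mean TPM, CASP4 stood first at 44.4 ± 3.30 (SD, n = 3), followed by TNFSF10 at 40.4 ± 5.96, TNFRSF10B at 37.0 ± 2.74, CASP8 at 26.9 ± 5.34, BID at 26.2 ± 1.39, CASP1 at 24.2 ± 5.97, FAS at 12.7 ± 4.12 and XAF1 at 4.84 ± 1.40. The ranges of the 3 libraries overlapped between each neighbour in CASP4, TNFSF10 and TNFRSF10B, and between each neighbour from CASP8 to FAS, so those neighbours did not differ beyond their spread. TNFRSF10B did not overlap CASP8, nor did FAS overlap XAF1. In both irradiated groups TNFRSF10B stood at the head of the order, with 46.1 ± 0.881 TPM in irradiated WT cells and 37.3 ± 1.91 TPM in irradiated KO cells, where its range overlapped that of CASP4. TNFSF10 was at rank 4 at 26.3 ± 1.55 TPM in WT and at rank 5 at 20.6 ± 2.25 TPM in KO.

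TNFSF10, the TRAIL ligand, was present at 44.7, 43.0 and 33.6 TPM in unirradiated WT cells and at 27.7, 34.1 and 39.4 TPM in unirradiated KO cells. After RT it was at 26.8, 27.6 and 24.6 TPM in WT cells and at 18.8, 19.9 and 23.1 TPM in KO cells. The highest irradiated library, at 27.6 TPM, thus stayed just under the lowest unirradiated one, at 27.7 TPM, and the KO libraries overlapped the WT libraries at 0 Gy but not after RT. On the log2(TPM + 1) scale it fell by 0.59 in WT cells (SE 0.14, adjusted p = 0.0452) and fell by 0.68 in KO cells (SE 0.14, adjusted p = 0.0262). These calls are near the threshold. The first was lost in 9 of the 12 fits that left out 1 library (adjusted p 0.0501 to 0.140; it held without WT 0 Gy replicate 3, KO 0 Gy replicate 1 or KO 0 Gy replicate 3). The second was lost without KO 0 Gy replicate 2 or 3 or KO RT replicate 1 or 2 (adjusted p 0.0827 to 0.0883). Both were lost with no filter on low values (adjusted p = 0.172 and 0.107) and in fits on the 6 libraries compared (adjusted p = 0.0885 and 0.0991). The first was also lost without a trend in the variance (adjusted p = 0.0547). With both genotypes averaged, a comparison of 6 against 6 libraries added after the data had been seen, TNFSF10 was lower by a log2 difference of -0.64 (SE 0.10, adjusted p = 0.00286), and the adjusted p stayed between 0.00186 and 0.00969 whichever library was left out. In this averaged comparison 3 of the 8 genes passed (TNFSF10, TNFRSF10B and CASP1), against 10.2% of all genes, and TNFSF10 was 1 of the 8 whose 6 irradiated libraries did not overlap the 6 unirradiated ones, beside 5.25% of all genes. Between KO and WT the log2 difference of TNFSF10 was -0.26 at 0 Gy (95% interval -0.56 to 0.05, adjusted p = 0.450) and -0.34 after RT (95% interval -0.65 to -0.03, adjusted p = 0.225).

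TNFSF10 lies at chr3:172505508-172523507 on the minus strand of GRCh38 (GENCODE 29). Its start region is shown because the ligand was the gene that passed the threshold with radiation in both genotypes. The first sequence below is chr3:172523508-172523680, the 173 bases just before the annotated gene, and the other is the 30 bases at chr3:172523450-172523479, close to the start given by RefSeq, both from RefSeq GRCh38.p14, minus strand, 5′ to 3′. Capitals mark, on either strand, matches to interferon-response-like motifs, a pair of GAAA with 2 bases between (first sequence) or 1 base between (second sequence, GAAANGAAA), where TATAAA is also in capitals.
TNFSF10 before the annotated gene: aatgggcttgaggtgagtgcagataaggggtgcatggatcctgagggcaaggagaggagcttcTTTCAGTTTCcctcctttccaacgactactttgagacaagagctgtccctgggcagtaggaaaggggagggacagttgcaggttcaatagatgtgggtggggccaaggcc
TNFSF10 near the RefSeq start: TTTCATTTCctcactgacTATAAAagaata
The matches begin at -187, -49 and -31 counted from the RefSeq start. In windows of 300 bases around 35116 RefSeq starts, the pair 2 bases apart was found in 3.57%, GAAANGAAA in 3.12% and TATAAA in 11.5% of windows, on either strand. A match is a description of the letters and was not tested for binding.

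TNFRSF10B encodes DR5, the TRAIL receptor that these cells expressed, and is at chr8:23020133-23069179 on the minus strand. Its values were 36.2, 40.0 and 34.8 TPM in unirradiated WT cells and 46.3, 46.8 and 45.1 TPM in irradiated WT cells. In KO cells they were 33.5, 33.3 and 36.5 TPM at 0 Gy and 39.3, 37.2 and 35.4 TPM after RT. The 3 irradiated WT libraries were above all 9 others, and the irradiated KO libraries overlapped the unirradiated libraries of both genotypes. TNFRSF10B rose with RT in WT cells by a log2 difference of 0.31 (SE 0.06, adjusted p = 0.0292), and in irradiated cells it was lower in KO by a log2 difference of -0.30 (SE 0.06, adjusted p = 0.0328). With RT in KO cells the log2 difference was 0.11 (95% interval -0.03 to 0.26, adjusted p = 0.406), and between KO and WT at 0 Gy it was -0.10 (95% interval -0.24 to 0.04, adjusted p = 0.548). A rise past the threshold in WT and not in KO does not show that the genotypes responded differently: the difference between the 2 radiation effects was -0.20 on the log2 scale (95% interval -0.40 to 0.003, adjusted p = 0.752).

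Both calls of TNFRSF10B depended on single libraries. The rise with RT in WT cells was lost without WT 0 Gy replicate 1 or 3 or any 1 of the irradiated WT libraries (adjusted p 0.0654 to 0.0930). The lower level in irradiated KO cells was lost without any 1 of the irradiated WT libraries or KO RT replicate 2 or 3 (adjusted p 0.0731 to 0.112). With no filter on low values they were at adjusted p = 0.0644 and 0.0752, and in fits on the 6 libraries compared at 0.103 and 0.0791. Averaged over the genotypes, the effect of RT was 0.21 (SE 0.05, adjusted p = 0.0162), past the threshold in all 12 such fits (adjusted p 0.00961 to 0.0427). Averaged over the arms, KO was lower than WT by a log2 difference of -0.20 (SE 0.05, adjusted p = 0.0276), a call lost in 7 of the 12 (without WT 0 Gy replicate 2, KO 0 Gy replicate 1 or 2, WT RT replicate 1 or 2, or KO RT replicate 2 or 3, adjusted p 0.0517 to 0.0679). In that averaged comparison of genotypes 2 of the 8 genes passed, XAF1 and TNFRSF10B, both lower in KO, against 7.43% of all genes in either direction and 4.96% in the lower direction, and XAF1 was 1 of the 8 without overlap between 6 and 6 libraries, beside 3.99% of all genes. XAF1 met the filter on low values through its WT libraries alone, so these counts too are only a description.

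TNFRSF10A encodes DR4, the other signalling receptor of TRAIL, and is at chr8:23190452-23225126 on the minus strand. It was listed at 0 in all 12 libraries, whereas the least expressed of 20 housekeeping genes had its lowest level at 19.9 TPM. Its neighbours TNFRSF10D, TNFRSF10A-AS1, RPL23AP55, AC100861.1 and AC100861.2 were also listed at 0 in all 12 libraries, so that 6 genes in a row carried no value above 0. TNFRSF10D and TNFRSF10C encode decoy receptors that bind TRAIL without a complete death domain, and TNFRSF10C, next to this run, was listed at 0 in 10 libraries and reached 0.155 TPM at most. Among 19806 protein-coding genes of the annotation in the table, 2992 (15.1%) were at 0 in every library. Beyond TNFRSF10C and the antisense genes AC107959.2 (at most 0.334 TPM) and AC107959.3 (mean 1.72 TPM), TNFRSF10B had a mean of 38.7 TPM and RHOBTB2 of 31.5 TPM, and on the other side of the run CHMP7 stood at 17.8 TPM, R3HCC1 at 9.17 TPM and LOXL2 at 78.5 TPM. Of the 16 annotated genes from RHOBTB2 to LOXL2, 14 were in the table. Without read counts no upper limit can be put on a value of 0.

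**Figure D2:**
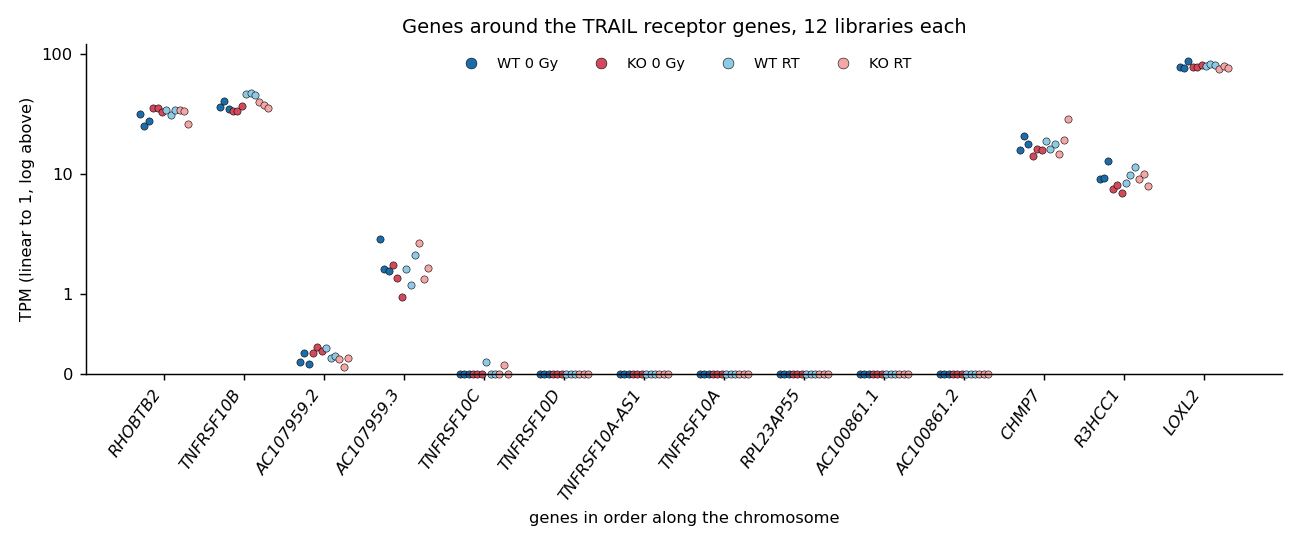
TPM (y axis, linear up to 1 and logarithmic above) of the 14 genes of the table from RHOBTB2 to LOXL2, in their order along the chromosome (x axis). Each gene has 12 points, 1 per library, coloured by group, and 6 neighbouring genes including TNFRSF10A lie at 0 in all 12 libraries.

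FAS encodes the receptor of Fas ligand and is at chr10:88990582-89015785 on the plus strand. It stood at 17.5, 9.92 and 10.8 TPM in unirradiated WT cells and at 8.39, 7.71 and 10.5 TPM in unirradiated KO cells. After RT it was at 16.7, 17.9 and 15.2 TPM in WT cells and at 13.0, 11.7 and 10.2 TPM in KO cells. The irradiated KO libraries were below all 3 irradiated WT libraries, while the other groups compared overlapped, with WT 0 Gy replicate 1 far above the rest of its group. The log2 differences between KO and WT were -0.45 at 0 Gy (SE 0.19, adjusted p = 0.311) and -0.48 after RT (SE 0.19, adjusted p = 0.205). Those between RT and 0 Gy were 0.39 in WT (SE 0.19, adjusted p = 0.298) and 0.36 in KO (SE 0.19, adjusted p = 0.345), and none of the 4 passed the threshold. Without WT 0 Gy replicate 1 the difference between KO and WT at 0 Gy was -0.22 and that with RT in WT was 0.63, and without WT 0 Gy replicate 2 the latter was 0.25. Averaged over the arms the genotype difference was -0.46 (95% interval -0.76 to -0.17, adjusted p = 0.0592), past the threshold without WT 0 Gy replicate 2 (adjusted p = 0.0431). Averaged over genotypes the radiation difference was 0.38 (95% interval 0.09 to 0.67, adjusted p = 0.105), past it without WT 0 Gy replicate 1 (adjusted p = 0.0123). FAS shares 758 bases with ACTA2, the smooth muscle actin gene on the opposite strand, and whether reads were counted by strand is not given in the sources used here. ACTA2 ranged from 4.16 to 9.91 TPM and was lower in KO at 0 Gy (log2 difference -0.57, SE 0.11, adjusted p = 0.0285) and after RT (log2 difference -0.49, SE 0.11, adjusted p = 0.0372), and its part in the values of FAS was not tested.

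The ratio of TNFSF10 to TNFRSF10B, taken from TPM in each library, was 1.24, 1.07 and 0.967 in unirradiated WT cells and 0.827, 1.02 and 1.08 in unirradiated KO cells. After RT it was 0.578, 0.589 and 0.545 in WT cells and 0.478, 0.534 and 0.651 in KO cells. All 6 irradiated libraries were below all 6 unirradiated ones. The mean log2 ratio differed by -0.93 between RT and 0 Gy in WT cells and by -0.82 in KO cells, and between KO and WT by -0.16 at 0 Gy and by -0.05 after RT. The ratio was formed with the values of both genes known, one lower and the other higher after RT in WT cells, so it restates them and is given with no test.

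**Figure D3:**
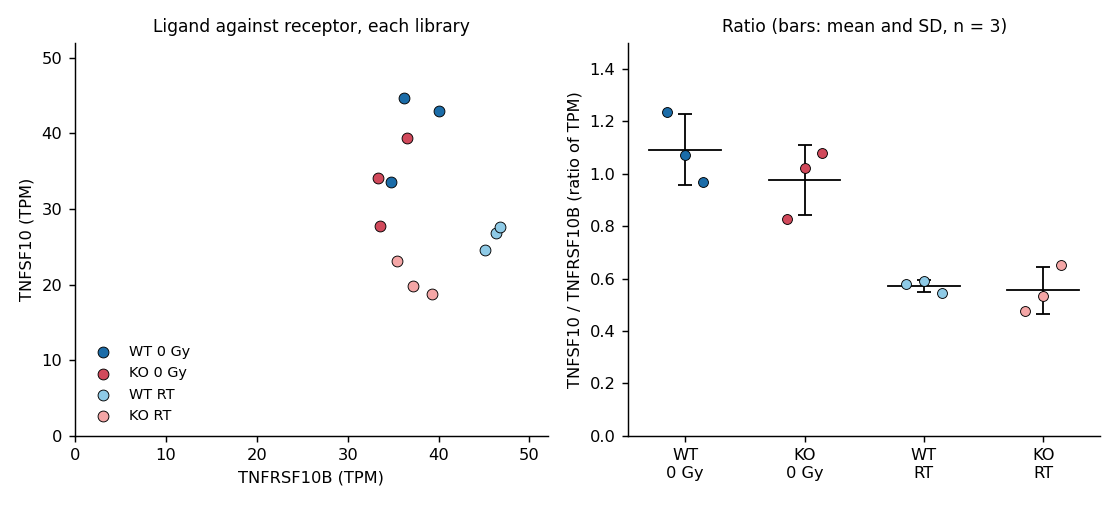
Left, TNFSF10 (y axis, TPM) against TNFRSF10B (x axis, TPM), 1 point per library, coloured by group. Right, the ratio of the TPM of TNFSF10 to that of TNFRSF10B (y axis, from 0) in the 4 groups, with points for libraries and bars for the mean and SD of 3. Unirradiated libraries lie between 0.827 and 1.24, irradiated ones between 0.478 and 0.651.

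XAF1 was the gene of the group that separated the genotypes both at 0 Gy and after RT. It was at 4.02, 6.46 and 4.05 TPM in unirradiated WT cells and at 0.299, 0.665 and 0.620 TPM in unirradiated KO cells. After RT it was at 8.85, 2.57 and 8.34 TPM in WT cells and at 0.513, 0.363 and 0.619 TPM in KO cells. All 6 KO libraries were below all 6 WT libraries, and among the WT libraries the lowest, WT RT replicate 2 at 2.57 TPM, was still several times the highest KO library. The mean TPM fell by 89.1% at 0 Gy and fell by 92.4% after RT. On the log2(TPM + 1) scale, which understates the change of a gene this low, XAF1 fell by 1.92 at 0 Gy (SE 0.34, adjusted p = 0.0161) and fell by 2.21 after RT (SE 0.34, adjusted p = 0.00532). The log2 ratios of the mean TPM were -3.20 and -3.72. Because only the WT libraries brought XAF1 past the filter, these p-values are no independent support for its difference. With no filter on low values the call at 0 Gy was lost (adjusted p = 0.0947) and the call after RT held.

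The call for XAF1 at 0 Gy was lost without WT 0 Gy replicate 2 or any 1 of the unirradiated KO libraries (adjusted p 0.0539 to 0.0726), whereas after RT it held in all 12 such fits (adjusted p 0.000102 to 0.0266) and was lost in a fit on the 6 irradiated libraries alone (adjusted p = 0.0661). Averaged over both arms the log2 difference was -2.06 (SE 0.24, adjusted p = 0.000472), with an adjusted p between 8.41e-06 and 0.00223 over the libraries left out. The fits without 1 library kept the genes of the same filter, so these p-values too are no independent support for the difference. With RT the log2 difference of XAF1 was 0.27 in WT cells (95% interval -0.49 to 1.02, adjusted p = 0.747) and -0.02 in KO cells (95% interval -0.77 to 0.73, adjusted p = 0.983), and the spread of the irradiated WT libraries, 6.59 ± 3.49 TPM, was the widest relative to its mean of the 8 detected genes in that group.

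XAF1 is at chr17:6755447-6775647 on the plus strand. The 30 bases around the start of 1 of its 2 RefSeq windows, chr17:6756031-6756060 on the plus strand, are shown because XAF1 moved most with genotype, beside the stretches of CASP8 (chr2:201233450-201233479, plus strand) and CASP4 (chr11:104968777-104968806, minus strand) that hold the same kind of letters in genes that did not pass. The sequences are from RefSeq GRCh38.p14, 5′ to 3′, and capitals mark GAAANGAAA (XAF1, CASP4) or GAAA and GAAA with 2 bases between (CASP8) on either strand.
XAF1: ttgcctgcaaGAAACGAAActcaaccgaaa
CASP8: gagtttttggTTTCTGTTTCaccttgtgtc
CASP4: caggaaacaaGAAAAGAAAcaagctgaggt
The match begins at -5 in XAF1, -3 in CASP8 and -222 in CASP4, counted from the RefSeq start of each window. The other window of XAF1, which lies at the start of the annotated gene, held no match to either spacing, and of the 3 windows of CASP8 only the 1 shown did. RefSeq windows were at hand for 6 of the 9 genes (TNFSF10, FAS, XAF1, CASP4, CASP8 and BID), and those of FAS and BID held no match to either motif. The spacing GAAANGAAA was added after the window of XAF1 had been read. No window of the 6 genes held a pair of CATG with 6 bases between, the cores of p53 half-sites, which 0.373% of all windows held, or GGG and TTTCC with 2 bases between, an NF-κB-like motif found in 1.91%. At shares this low, no match in so few windows says little, and TNFRSF10B had no window. TTC and GAA with 3 bases between, in 7.66% of all windows, was matched in the CASP8 window shown, at -200. TATAAA was also matched in another window of CASP8, at -139.

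The 3 tested genes outside the group whose log2 values followed XAF1 most closely over the 12 libraries were SLC15A3 (Pearson's r = 0.97), RPS6KC1 (0.96) and PARP12 (0.95). PARP12 lay between 18.7 and 29.2 TPM in WT and between 10.5 and 14.2 TPM in KO, so the points of such a correlation fall mainly into a high and a low genotype. Those that followed TNFSF10 most closely were SPTLC2 (r = 0.97), ZHX2 (0.96) and RPL36A (0.95), with SPTLC2 between 54.9 and 59.2 TPM in irradiated and between 58.3 and 66.6 TPM in unirradiated libraries. Among the 8 genes themselves the highest r was between TNFRSF10B and FAS (0.76), followed by TNFSF10 and CASP1 (0.66), and the lowest was between TNFSF10 and CASP8 (-0.49), all over 12 libraries that share the 4 groups and the scaling to TPM.

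CASP8, the initiator caspase of the death receptors, at chr2:201233443-201287711 on the plus strand, was at 21.5, 27.1 and 32.2 TPM in unirradiated WT cells and at 32.7, 26.3 and 24.1 TPM in unirradiated KO cells. After RT it was at 26.8, 24.1 and 33.8 TPM in WT cells and at 30.1, 37.5 and 21.8 TPM in KO cells, so that all groups overlapped. Its 4 log2 differences lay between 0.05 and 0.08, with adjusted p of at least 0.889, and their 95% intervals, equal in width, ran from -0.42 to 0.52 for the lowest and from -0.39 to 0.55 for the highest.

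BID, which caspase-8 cuts, at chr22:17734138-17774770 on the minus strand, had the narrowest range relative to its level of the 8 detected genes. It was at 27.7, 25.8 and 25.0 TPM in unirradiated WT cells, 27.9, 23.8 and 27.7 TPM in unirradiated KO cells, 26.5, 23.2 and 26.5 TPM in irradiated WT cells and 27.2, 25.2 and 24.9 TPM in irradiated KO cells. All groups overlapped within 23.2 to 27.9 TPM. The log2 differences between KO and WT were 0.02 at 0 Gy (95% interval -0.16 to 0.19) and 0.02 after RT (95% interval -0.15 to 0.20), and those with RT were -0.04 in WT (95% interval -0.22 to 0.13) and -0.04 in KO (95% interval -0.21 to 0.14), with adjusted p of at least 0.840.

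CASP1, the caspase of the inflammasomes, is at chr11:105025443-105035250 on the minus strand. It was at 27.2, 28.0 and 17.3 TPM in unirradiated WT cells and at 20.1, 14.9 and 19.2 TPM in irradiated WT cells. In KO cells it was at 28.5, 29.9 and 24.0 TPM at 0 Gy and at 17.6, 17.6 and 16.0 TPM after RT, without overlap. In WT cells the groups overlapped through WT 0 Gy replicate 3, at 17.3 TPM. The log2 differences with RT were -0.38 in WT (SE 0.17, adjusted p = 0.277) and -0.65 in KO (SE 0.17, adjusted p = 0.0705), neither past the threshold, and without WT 0 Gy replicate 3 both passed (adjusted p = 0.0499 and 0.0191). Averaged over genotypes CASP1 was lower after RT by a log2 difference of -0.52 (SE 0.12, adjusted p = 0.0251), a call lost without any 1 of WT 0 Gy replicates 1 and 2, KO 0 Gy replicates 1 and 2, WT RT replicate 2 and KO RT replicate 3 (adjusted p 0.0546 to 0.0609). The call was also lost with no filter on low values (adjusted p = 0.113). Between KO and WT the log2 differences were 0.20 at 0 Gy (95% interval -0.18 to 0.59) and -0.07 after RT (95% interval -0.45 to 0.32).

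CASP1 has close relatives beside it that can share its reads. CARD16, which encodes a CARD-only protein similar to the prodomain of caspase-1, ranged from 3.79 to 7.25 TPM and passed the threshold in none of the comparisons, while CARD17 was at 0 in 11 libraries and CASP5 in 10. How the reads were divided between these genes was not tested.

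CASP4, the human caspase that senses intracellular lipopolysaccharide, at chr11:104942866-104969436 on the minus strand, was at 42.9, 48.1 and 42.0 TPM in unirradiated WT cells and at 43.0, 44.7 and 27.8 TPM in unirradiated KO cells. After RT it was at 37.1, 38.5 and 38.8 TPM in WT cells and at 34.5, 31.4 and 39.3 TPM in KO cells. The irradiated WT libraries were all below the unirradiated WT ones, and the other groups overlapped. The log2 differences with RT were -0.21 in WT (95% interval -0.55 to 0.13, adjusted p = 0.541) and -0.11 in KO (95% interval -0.45 to 0.24, adjusted p = 0.777), and those between KO and WT were -0.23 at 0 Gy (95% interval -0.57 to 0.12; -0.01 without KO 0 Gy replicate 3, -0.35 without KO 0 Gy replicate 2) and -0.12 after RT (95% interval -0.47 to 0.22). The averaged radiation difference, -0.16 (adjusted p = 0.419), passed only without KO 0 Gy replicate 3, the library at 27.8 TPM (adjusted p = 0.0346).

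**Figure D4:**
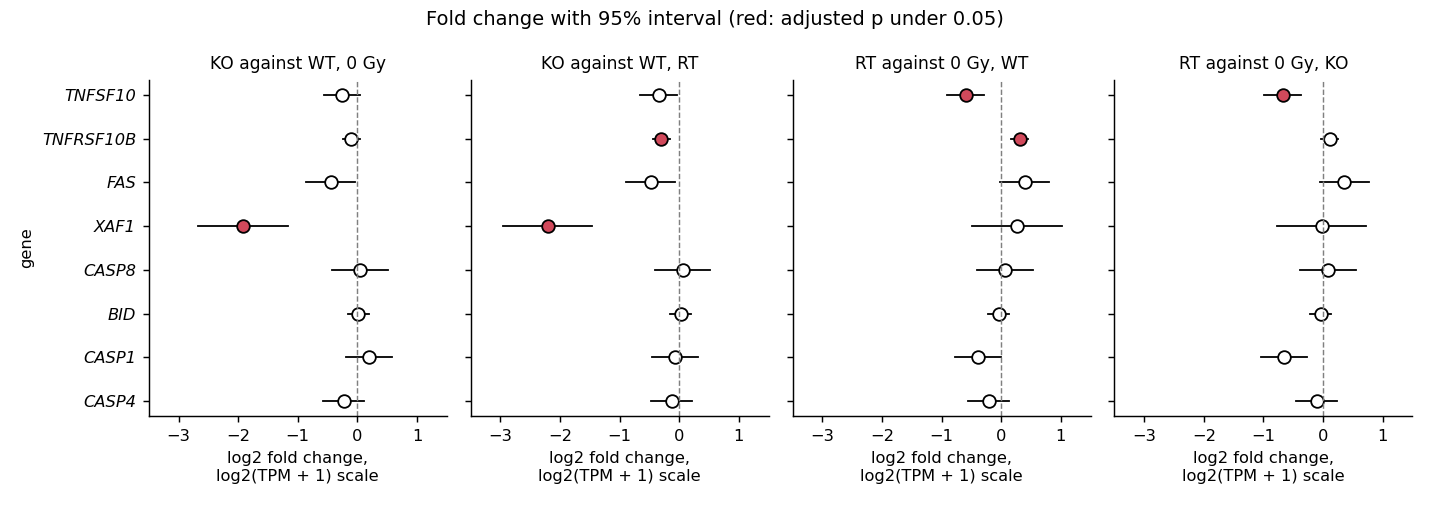
Log2 fold change on the log2(TPM + 1) scale (x axis) of the 8 tested genes (y axis) in the 4 comparisons, with 95% intervals from the limma fit as lines. Red points have an adjusted p under 0.05. XAF1 is red in both KO comparisons, at -1.92 and -2.21, TNFSF10 in both radiation comparisons, at -0.59 and -0.68, and TNFRSF10B in irradiated KO against WT, at -0.30, and in irradiated WT, at 0.31.

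The radiation effect did not differ between KO and WT past the threshold for any of the 8 genes, against 3 of 15973 genes tested (0.0188%). At an unadjusted p under 0.05 the count was also 0 of 8, beside 6.61% of all genes. A count of 0 in 8 genes cannot be told from that share. TNFRSF10B came closest, at an unadjusted limma p of 0.0531 (log2 difference -0.20, 95% interval -0.40 to 0.003). The differences of the 2 effects were between -0.29 (XAF1, 95% interval -1.35 to 0.77) and 0.10 (CASP4, 95% interval -0.38 to 0.59) on the log2 scale. That of TNFSF10 was -0.09 (95% interval -0.52 to 0.35), that of CASP1 was -0.27 (95% interval -0.81 to 0.28) and that of FAS was -0.03 (95% interval -0.62 to 0.55). These intervals leave room for differences as large as some of the effects above.

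The wider pathway was read from lists of 115 further genes, of which 89 were tested. These lists were chosen with earlier results of these data known, so their counts here and below are only a description. In KO against WT 8 of the 89 passed at 0 Gy and 11 after RT, every one of them lower in KO, beside 1.73% (1.26% lower) and 3.59% (2.66% lower) of all genes tested. In irradiated against unirradiated cells 10 passed in WT, beside 3.74% of all genes, and 6 in KO, beside 3.69%. The radiation effects of KO and WT differed past the threshold (limma) for 0 of the 89, beside 0.0188% of all genes, and at an unadjusted p under 0.05 for 11, where 6.61% of all genes were under it. At an unadjusted p under 0.05 the shares of all genes in the other comparisons were 14.3% and 17.9% for KO at 0 Gy and after RT, and 18.2% and 18.1% for RT in WT and KO.

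Of the adaptors, other apoptotic caspases and their inhibitors, such as FADD, CFLAR and XIAP, 0 of 20 tested genes passed in any of the 4 comparisons, with 3, 0, 1 and 1 of them at an unadjusted p under 0.05 in KO at 0 Gy, KO after RT, RT in WT and RT in KO. Their median log2 differences were 0.04, -0.05, 0.06 and -0.02, beside -0.02, -0.02, 0.02 and 0.02 over all genes. FADD, the adaptor that links receptors to caspase-8, was at 334 ± 13.3 TPM in unirradiated WT cells and 346 ± 10.7 TPM in irradiated KO cells. Those groups differ in both genotype and radiation, so the pair shows neither effect alone. CFLAR, which encodes the caspase-8 inhibitor c-FLIP, was at 12.2 ± 1.05, 16.6 ± 1.14, 14.7 ± 2.03 and 13.4 ± 3.44 TPM in WT 0 Gy, KO 0 Gy, WT RT and KO RT, and CASP10, a close relative of CASP8, lay between 2.15 and 5.21 TPM.

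Of the other TNF family ligands, receptors and decoys, 1 of 8 tested genes was lower in KO at 0 Gy and 1 of 8 after RT, NGFR in both, and 1 of 8 rose with RT in WT cells, again NGFR, while 0 of 8 passed with RT in KO cells (4 of 8 at an unadjusted p under 0.05). NGFR encodes the p75 neurotrophin receptor, which carries a death domain, and its log2 differences were -0.28 (adjusted p = 0.0380), -0.35 (adjusted p = 0.00809) and 0.30 (adjusted p = 0.0193). The medians of the list were -0.06, -0.10, -0.06 and 0.03 in the 4 comparisons.

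Of the other genes of the BCL2 family, to which BID belongs, 1 of 12 was lower in KO at 0 Gy and 2 of 12 after RT, 2 of 12 rose with RT in WT and 1 of 12 fell with RT in KO. PMAIP1, which encodes the BH3-only protein NOXA, was at 25.5, 28.7 and 21.6 TPM in unirradiated WT cells and 8.51, 8.85 and 10.4 TPM in unirradiated KO cells, and after RT at 38.6, 37.4 and 38.4 TPM in WT cells and 9.64, 12.7 and 9.62 TPM in KO cells. It did not overlap between genotypes, with log2 differences of -1.35 (SE 0.12, adjusted p = 0.000223) at 0 Gy and -1.76 (SE 0.12, adjusted p = 2.01e-05) after RT, and it rose by 0.59 with RT in WT (SE 0.12, adjusted p = 0.0316). BAK1, an effector of the mitochondrial route, fell by 0.25 with RT in KO (SE 0.05, adjusted p = 0.0246). The medians of the list were -0.04, -0.16, 0.04 and -0.02.

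Of the inflammasome and pyroptosis genes, 2 of 18 were lower in KO at 0 Gy and 1 of 18 after RT, 2 of 18 rose with RT in WT and 1 of 18 in KO. GBP4, an interferon-induced guanylate-binding protein gene, had the largest difference of the 89, -1.80 at 0 Gy (SE 0.19, adjusted p = 0.000604) and -2.16 after RT (SE 0.19, adjusted p = 0.000105), with 4.76 to 7.91 TPM in WT and 0.384 to 1.34 TPM in KO. Its WT libraries alone were enough to meet the filter on low values. The log2(TPM + 1) scale understates the change of a gene this low. The log2 ratios of its mean TPM were -2.51 at 0 Gy and -3.15 after RT. IL1B, a substrate of caspase-1, rose with RT by 0.31 in WT (SE 0.06, adjusted p = 0.0189) and by 0.41 in KO (SE 0.06, adjusted p = 0.00480). The medians of the list were -0.05, -0.16, 0.04 and -0.02. GSDMD, which encodes the pore-forming substrate of both inflammatory caspases, lay between 14.2 and 29.2 TPM and passed in none of the 4 comparisons.

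Of the interferon signalling factors, 3 of 10 were lower in KO at 0 Gy and 5 of 10 after RT, with 0 of 10 past the threshold with RT in either genotype (3 of 10 in WT and 1 of 10 in KO at an unadjusted p under 0.05). IRF9, the DNA-binding part of the interferon-activated complex ISGF3, differed by -1.19 at 0 Gy (SE 0.18, adjusted p = 0.00574) and by -2.09 after RT (SE 0.18, adjusted p = 7.60e-05). IRF7, an amplifier of interferon production, differed by -0.82 (SE 0.14, adjusted p = 0.0118) and -1.24 (SE 0.14, adjusted p = 0.000534), and IRF1 by -0.73 after RT (SE 0.16, adjusted p = 0.0376). The medians of the list were -0.20, -0.20, 0.04 and -0.01.

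Of the p53 target genes outside the other lists, 1 of 20 was lower in KO at 0 Gy and 2 of 20 after RT. With RT, 4 of 20 rose and 1 fell in WT, and 3 rose and 1 fell in KO. CDKN1A, which encodes the cell cycle inhibitor p21, was present in WT at 26.4 ± 2.71 TPM before RT and 45.9 ± 3.18 TPM after it, and in KO at 15.8 ± 0.506 TPM before and 24.5 ± 2.68 TPM after (SD, n = 3). It rose with RT by 0.78 in WT (SE 0.09, adjusted p = 0.00157) and by 0.60 in KO (SE 0.09, adjusted p = 0.00681), and was lower in KO by -0.70 at 0 Gy (SE 0.09, adjusted p = 0.00331) and -0.88 after RT (SE 0.09, adjusted p = 0.000423). TIGAR, which lowers glycolytic flux, rose by 0.34 in WT (SE 0.06, adjusted p = 0.0146) and 0.31 in KO (SE 0.06, adjusted p = 0.0235). AEN, an apoptosis-enhancing nuclease gene, rose by 0.44 (SE 0.06, adjusted p = 0.00302) and GDF15 by 0.36 (SE 0.08, adjusted p = 0.0437) in WT, TP53I3 rose by 0.58 in KO (SE 0.14, adjusted p = 0.0455), and PHLDA3 fell by 0.29 in KO (SE 0.05, adjusted p = 0.0181). The medians of the list were -0.00, 0.03, 0.04 and 0.09. TNFRSF10B and FAS are themselves known p53 targets.

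Of the necroptosis genes, 1 of 3 was tested and it passed in none of the 4 comparisons, with log2 differences between -0.20 and 0.07.

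**Figure D5:**
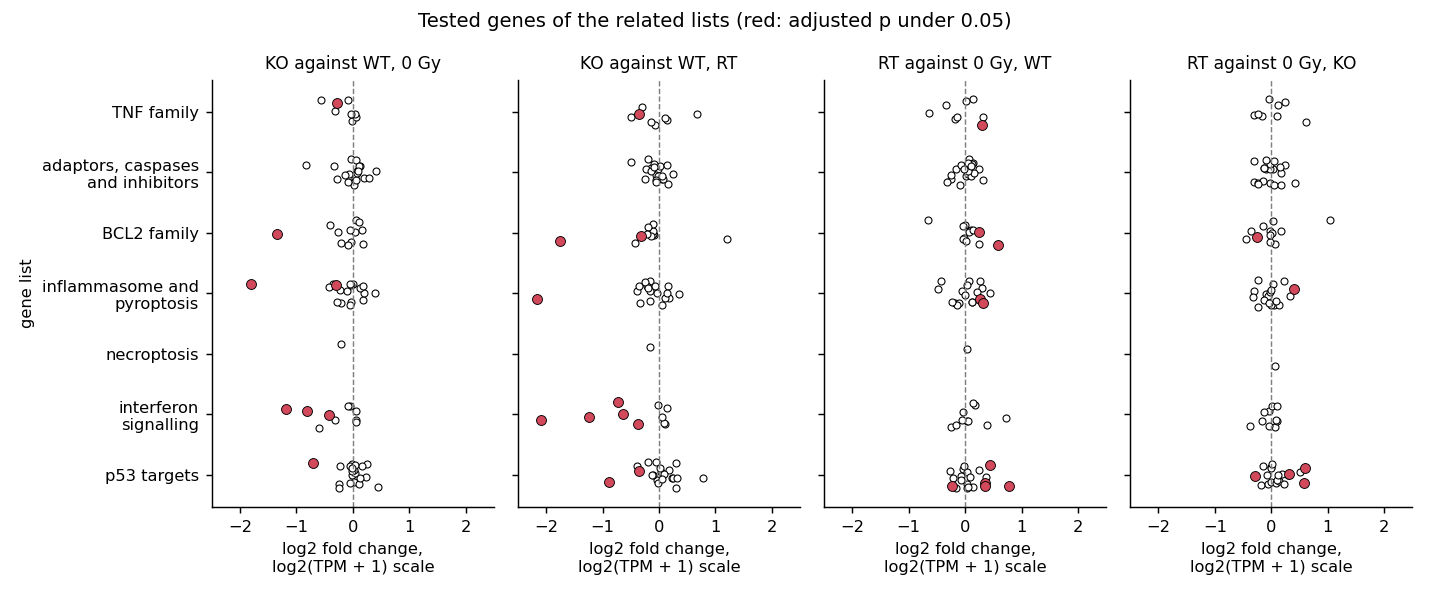
Log2 fold change on the log2(TPM + 1) scale (x axis) of the tested genes of the 7 related lists (y axis, with vertical scatter only to part the points) in the 4 comparisons. Red points have an adjusted p under 0.05. All red points lie below 0 in both KO comparisons, the lowest being GBP4 at -1.80 and -2.16, and the adaptors, caspases and inhibitors have none.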

How the data were processed

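The 12 libraries were read from 1 table of TPM that the authors deposited for 58288 genes. RNA was selected with oligo-dT and sequenced as paired ends of 100 bases. The submitters' processing notes name HISAT2, StringTie and the build hg38, without versions or settings. Of the 12 columns, 6 name the non-targeting guide and were taken as WT. The other 6 carry an arm name that no label explains and were taken as KO, the only other genotype of the labels. Dose and number follow the column names. No 2 columns were identical.

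Values were taken as log2(TPM + 1). The 15973 genes that reached 1 TPM in 3 or more libraries were fitted with limma 3.58.1 in R 4.3.3 (4 group means, 8 residual degrees of freedom, eBayes with trend), and p-values were adjusted by Benjamini-Hochberg over all genes tested, with a threshold of 0.05. The study's own count test was not applied because the values are TPM. The 2 averaged comparisons were added after the data had been seen. The fit was tested on simulated data. Another 20 alternatives were tried.

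The 9 genes and the lists were chosen with earlier results of these data known. Named genes were all 9, TMEM173, genes sharing reads or span with a member, up to 6 genes with the largest change past the threshold in each comparison from the 7 lists, and the 3 genes nearest in pattern to 2 members. Other list genes named (FADD, NGFR, GSDMD and those under other observations) and the neighbours of TNFRSF10A were chosen after their values were seen. Positions are from GENCODE 29 (GRCh38), in which 55661 gene IDs of the table were found with the same version. Some genes that the rule would name are not reported here.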

Additional observations from a re-analysis of the deposited data

How the results depend on the processing

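The 8 genes kept the direction of every call under the 20 alternatives, none of which reversed a called value. The count of genes of the group past the threshold moved as follows. With no filter on low values it was 0 for KO at 0 Gy, 1 for KO after RT, 0 for RT in WT, 0 for RT in KO, 1 for the averaged genotypes and 2 for averaged radiation. With a mean TPM of at least 5, which removes XAF1, it was 0, 1 and, averaged, 1 for the genotype comparisons. With eBayes without trend it was 1 for RT in WT. With only the 6 libraries compared it was 0 for KO after RT and 0 for RT in WT, and in KO cells CASP1 passed in place of TNFSF10. Leaving out 1 library gave 0 to 1 (KO at 0 Gy), 1 to 2 (KO after RT), 0 to 2 (RT in WT), 0 to 2 (RT in KO), 1 to 2 (averaged genotypes) and 2 to 4 (averaged radiation).

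Over all genes the counts were 276 for KO at 0 Gy (103 with 6 libraries, 172 to 292 without 1 library), 573 for KO after RT (252 with 6 libraries, 313 to 542 without 1), 597 for RT in WT (387 with no filter, 166 with 6 libraries, 242 to 526 without 1), 590 for RT in KO (361 with no filter, 195 with 6 libraries, 268 to 553 without 1), 3 for the difference of radiation effects (5 with no filter, 1 without trend, 1 to 9 without 1 library) and 1187 for the averaged genotypes (786 with no filter, 788 to 951 without 1 library). The cause of these moves was not tested beyond fewer samples or other genes being tested. Median-of-ratios factors changed the split of lower to higher calls from 202 and 74 to 194 and 114 for KO at 0 Gy, from 792 and 395 to 634 and 556 (586 and 589 with quantile normalization) for the averaged genotypes, and from 646 and 981 to 800 and 804 for averaged radiation. Both scalings left the calls of the group as they were.

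Equal replicate numbers did not pair the libraries: 18 pairs of the same number had correlations of their deviations from -0.06 to 0.06, 0 of them above 0.1, and 4 of 12 libraries correlated best with their own number. With the replicate block the count of the group's genes was 1 for KO after RT, 0 for RT in WT, 0 for RT in KO and 1 for the averaged genotypes, and over all genes it was 378, 315, 359 and, for the difference of radiation effects, 1. The calls lost with the block were TNFRSF10B in KO after RT (adjusted p = 0.0714), with RT in WT (0.0649) and over the averaged genotypes (0.0567), and TNFSF10 with RT in WT (0.0910) and in KO (0.0608). The files give TPM without counts, and each group has 3 libraries.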

Other observations

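Among the genes of the related lists, 3 drew attention after their values had been seen. AIM2, the cytosolic DNA sensor that can activate caspase-1, was below the filter on low values but listed at 0 in all 6 KO libraries, against 0.618, 0.532 and 0.148 TPM in unirradiated and 0.696, 0.417 and 0.365 TPM in irradiated WT cells. It was picked for this pattern, so no test is given, nor a fold against a group at 0.

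BCL2L11, which encodes the BH3-only protein BIM, was at 31.8, 26.1 and 32.9 TPM in irradiated KO cells, above all 9 other libraries, which lay between 8.22 and 22.9 TPM. KO and WT libraries did not overlap after RT for 24.1% of all genes. The log2 difference of BCL2L11 between KO and WT after RT was 1.2 (SE 0.37, adjusted p = 0.112) and did not pass the threshold.

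TNFRSF12A, the receptor of the TNF family ligand TWEAK, was at 169, 181 and 178 TPM in unirradiated WT cells and at 108, 164 and 93.7 TPM in unirradiated KO cells, without overlap, but after RT at 103, 148 and 94.0 TPM in WT and at 156, 163 and 235 TPM in KO, again without overlap and in the other direction. The radiation effect in KO minus that in WT was 1.25 on the log2 scale (SE 0.32, adjusted p = 0.621) and did not pass the threshold.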
